A study of Mus musculus with 9 samples.

Results

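The Kruppel-like factors examined here are 9 genes of the family other than the erythroid factor Klf1. They are Klf2, Klf3, Klf4, Klf5, Klf6, Klf7, Klf9, Klf10 and Klf13, and every array probe whose accession belongs to one of them was taken. This gave 13 of the 41174 distinct probes, with a pair of probes each for Klf2, Klf3, Klf6 and Klf9 and a single probe for the other 5 genes. Where a gene had a pair, the probe with the higher mean level is called its main probe and the remaining one its other probe. The probes were measured in FDCPmix, a murine multipotent progenitor cell line that self-renews in IL-3 and can form several blood lineages. In the control group (EV) the cells received empty lentivirus, and in the remaining groups the virus carried shRNA against Gata2 (Gata2 KD) or against Pu.1, the product of Spi1 (Pu.1 KD). Viable cells expressing the GFP marker of the virus were sorted on day 5, and 150 ng of their RNA was labelled for single-colour Agilent arrays. Each group had 3 arrays and each of 3 slides carried 1 array per group. The labels call the samples triplicates without saying whether these were separate cultures, so p-values here measure the spread between these samples.

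Kruppel-like factors are transcription factors with C-terminal zinc fingers that recognise CACCC elements and related GC-rich boxes, which they share with the Sp factors. Individual members activate or repress depending on the N-terminal region and the partners it recruits, such as CtBP for KLF3 and Sin3 for KLF9, KLF10 and KLF13. In blood cells, KLF2 is known for quiescence and for restraining inflammatory activation of lymphocytes and monocytes, KLF4 for monocyte differentiation, and KLF1 for the erythroid programme, in which Klf3 is one of its targets.

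Proximal promoters of 7 of the 9 genes were read from RefSeq (GRCm38.p6) as the 250 bases before the transcription start. Those of Klf2, Klf3, Klf4 and Klf6 are printed because these 4 genes had a probe called by the test over the 3 groups described below. Capitals mark every match to a KLF site (CACCC), a GC box (GGGCGGGG) or a MEF2 site (TAAATTTA) on either strand, and bases run 5′ to 3′ on the strand of the gene. The windows are chr8:72318812-72319061 on the plus strand for Klf2, chr5:64803271-64803520 on the plus strand for Klf3, chr4:55532476-55532725 on the minus strand for Klf4 and chr13:5861239-5861488 on the plus strand for Klf6.
Klf2: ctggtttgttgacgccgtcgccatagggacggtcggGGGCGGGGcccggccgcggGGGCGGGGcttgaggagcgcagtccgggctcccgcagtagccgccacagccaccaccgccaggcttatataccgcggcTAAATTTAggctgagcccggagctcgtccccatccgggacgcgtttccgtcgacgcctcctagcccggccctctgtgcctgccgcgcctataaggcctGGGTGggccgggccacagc
Klf3: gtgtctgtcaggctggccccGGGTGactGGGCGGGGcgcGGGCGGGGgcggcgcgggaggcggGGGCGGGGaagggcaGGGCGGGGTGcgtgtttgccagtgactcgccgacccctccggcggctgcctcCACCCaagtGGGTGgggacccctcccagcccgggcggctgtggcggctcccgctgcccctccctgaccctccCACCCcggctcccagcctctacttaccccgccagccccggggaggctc
Klf4: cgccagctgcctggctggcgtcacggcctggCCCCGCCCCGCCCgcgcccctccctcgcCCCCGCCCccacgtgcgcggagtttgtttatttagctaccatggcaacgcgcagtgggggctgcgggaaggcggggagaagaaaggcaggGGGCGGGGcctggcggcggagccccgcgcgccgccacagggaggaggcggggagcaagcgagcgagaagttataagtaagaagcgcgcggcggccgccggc
Klf6: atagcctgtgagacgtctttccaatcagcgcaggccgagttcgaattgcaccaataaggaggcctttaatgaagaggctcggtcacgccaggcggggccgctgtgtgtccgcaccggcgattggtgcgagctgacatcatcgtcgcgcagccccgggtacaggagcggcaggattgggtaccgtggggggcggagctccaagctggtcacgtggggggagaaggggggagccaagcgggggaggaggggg
The Klf2 window held a MEF2 site beginning 117 bases before the start, a motif found in 165 of 32851 RefSeq promoter windows of this length (0.502%) and chosen for the search after the Klf2 sequence had been seen. It also held 2 GC boxes and 1 KLF site. The Klf3 window held 5 KLF sites and 4 GC boxes, of which 1 pair overlapped, and the Klf4 window held 4 GC boxes, of which 1 pair overlapped, and no CACCC. None of these motifs occurred in the Klf6 window. Among all 7 windows 5 held a KLF site and 4 a GC box, against 52% and 16.1% of all promoters. A GATA site (AGATAA, in 9.99% of all promoters) and a PU.1 site (GAGGAAGT, in 2.44%) were in none of the 7, which says only that these letters do not occur there.

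**Figure D1:**
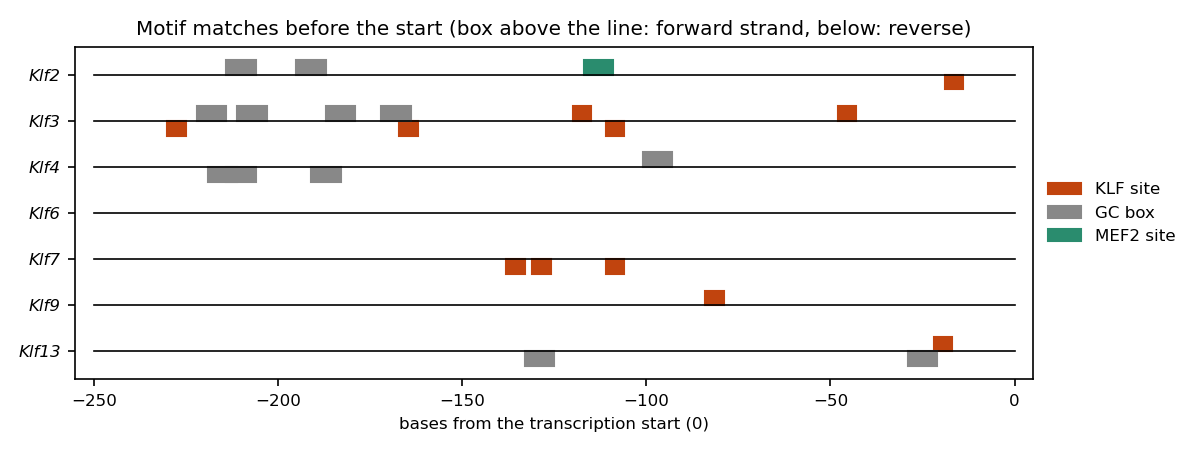
Motif matches in the 250 bases before the transcription start of 7 Kruppel-like factor genes (x axis, bases from the start). Boxes above each line are on the strand of the gene and those below on the opposite strand, and Klf3 carries 5 KLF sites whereas Klf6 carries no match.

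All 13 probes read well above background on all 9 arrays. Between 80.4% and 89.6% of non-control spots on an array did so, and no spot was saturated. Changes of dim probes still varied with the background correction. With the normexp alternative described below, Klf4 changed by -0.99 rather than -1.32 in Pu.1 KD against EV. The other Klf3 probe changed by 0.59 rather than 0.85 in Gata2 KD. Some genes of the lists below were well above background on fewer arrays, such as Smad7 on 6. Levels are log2 processed intensity minus the 75th percentile of the same array and are compared only between arrays for the same probe. Changes are differences of mean levels from limma over all 9 arrays, with Benjamini-Hochberg adjustment over 36585 tested probes, and a probe is called at an adjusted p under 0.05. Slides accounted for 78.4% of the first principal component over all tested probes and groups for 98.7% of the second, and the array that correlated least with the rest was EV replicate 3 (mean r 0.960). Gata2 itself changed by -1.61 in Gata2 KD against EV (limma adjusted p 0.00414). Spi1 changed by -1.73 in Pu.1 KD (adjusted p 0.00178) and by 1.39 in Gata2 KD (adjusted p 0.0012).

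**Figure D2:**
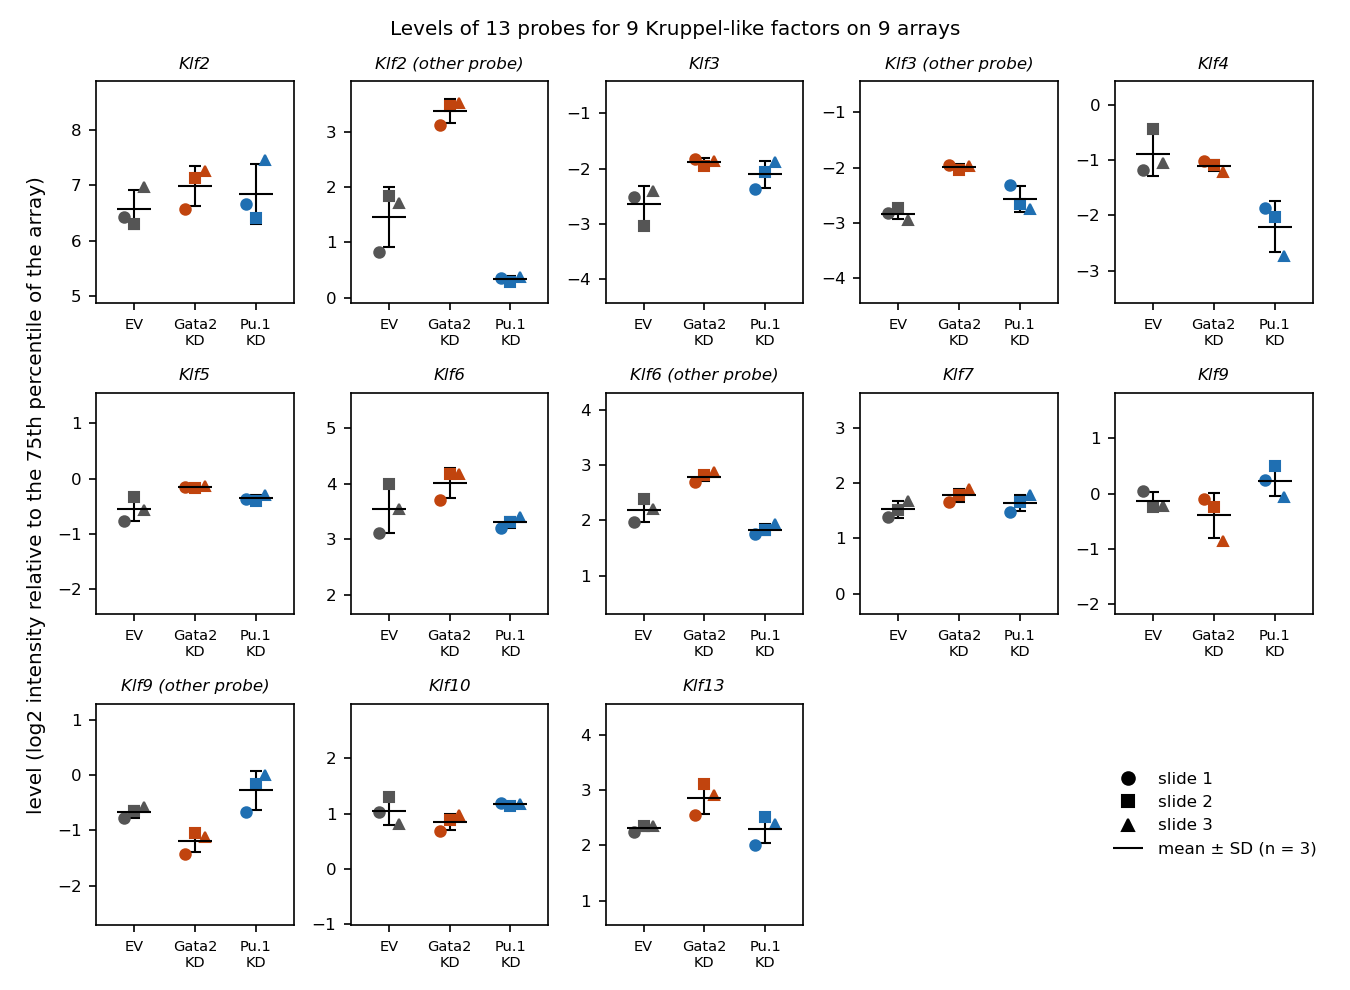
Level of each of the 13 probes on the 9 arrays (y axis, log2 intensity minus the array 75th percentile, each panel spanning the same height), with symbols for the slide and bars for mean ± SD (n = 3). The other probe of Klf2 separates all 3 groups, with Gata2 KD between 3.12 and 3.52 and Pu.1 KD between 0.29 and 0.38.

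Few members were called by their main probe, and the largest difference was on the other probe of Klf2. With each gene represented by its main probe, none of the 9 genes was called in Gata2 KD against EV, where limma called 7.15% of 15808 genes, and 3 of the 9 had an unadjusted p under 0.05. In Pu.1 KD against EV 1 of 9 was called, Klf4, against 3.61% of all genes. Klf4 was also the 1 member called between the knockdowns, against 12.4%. Over all 13 probes the calls were 2 in Gata2 KD (5.2% of all probes), 1 in Pu.1 KD (2.7%) and 5 between the knockdowns (9.63%). The moderated F test over the 3 groups called 4 of the 13, on Klf2, Klf3, Klf4 and Klf6, against 9.01% of all probes. The median change of the 9 main probes was 0.40 in Gata2 KD, where the median of all genes was -0.09, and 0.13 in Pu.1 KD, where it was -0.04. Levels of the knockdown and EV arrays did not overlap for 7 of 13 probes in Gata2 KD (18.6% of all probes) and for 4 of 13 in Pu.1 KD (17.3%). Levels of the knockdowns did not overlap each other for 10 of 13 (25.8%). Probes of the same gene are not independent of each other, and the comparisons against EV share the EV arrays.

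**Figure D3:**
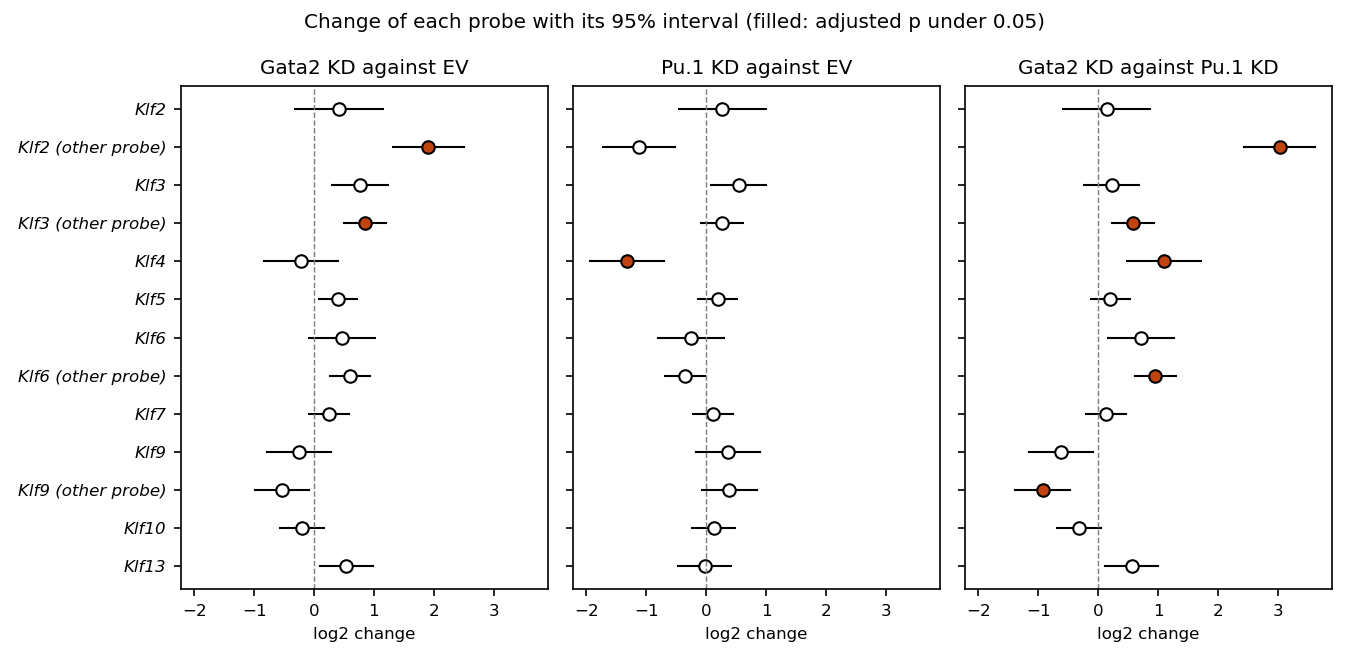
Log2 change of each of the 13 probes (x axis) with its 95% interval in the 3 comparisons, filled where the adjusted p was under 0.05. The filled points number 2 in Gata2 KD, 1 in Pu.1 KD and 5 between the knockdowns.

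Klf2 encodes a factor that keeps lymphocytes quiescent and is induced by the MEK5, ERK5 and MEF2 pathway. Its other probe rose in Gata2 KD against EV, and between the knockdowns it showed the largest difference of the 13 probes. It read 0.83, 1.70 and 1.84 in EV replicates 1 to 3. In Gata2 KD it read 3.52, 3.47 and 3.12, and in Pu.1 KD 0.29, 0.38 and 0.35. Every Gata2 KD array thus lay above every EV array and every Pu.1 KD array below, and EV had the widest spread. The change in Gata2 KD was 1.91 with an SE of 0.26 (3.76-fold, limma adjusted p 0.00357), and it was higher on 3 of 3 slides by 1.63 to 2.29. Between the knockdowns the difference was 3.03 (8.16-fold, adjusted p 0.000159). Both calls held under all 20 alternatives run for this probe. In Pu.1 KD the difference from EV was -1.12 with an SE of 0.26, which did not pass (adjusted p 0.0707), although the Pu.1 KD array was lower on 3 of 3 slides. It passed under 7 of the 20 alternatives, among them the slide as a block (adjusted p 0.0336) and without EV replicate 1 (adjusted p 0.0165). Because RNA came from sorted but mixed cells, fewer cells of a type and less RNA per cell cannot be told apart here or in the results that follow.

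The main probe of Klf2 did not show this pattern. Its levels were 6.44, 6.97 and 6.30 in EV, 7.25, 7.13 and 6.57 in Gata2 KD and 6.41, 7.45 and 6.66 in Pu.1 KD, and the ranges of all 3 groups overlapped. The differences were 0.42 in Gata2 KD (95% interval -0.31 to 1.14), 0.27 in Pu.1 KD (-0.46 to 1.00) and 0.15 between the knockdowns (-0.58 to 0.87), none of them called. Whether the probes changed by unequal amounts was tested for 6321 probe pairs, each the brightest tested probe of a gene and another of its tested probes. This test was added after these values had been seen. The change between the knockdowns was larger on the other Klf2 probe by 2.88 (SE 0.33, limma adjusted p 0.00507), and 1.72% of the pairs were called unequal in that comparison. Against EV the same difference was 1.49 in Gata2 KD (adjusted p 0.140) and -1.39 in Pu.1 KD (adjusted p 0.294), neither of them called. The size of the Klf2 difference between the knockdowns thus depended on the probe, and the probes differed in sign only in Pu.1 KD against EV, where neither was called. Processed intensities were 38495 to 86980 on the main probe and 568 to 5164 on the other probe. What set the probes apart, this difference in brightness included, was not tested. When the levels of both probes were averaged, Klf2 was called in Gata2 KD at 1.16 (adjusted p 0.0315) and between the knockdowns at 1.59 (adjusted p 0.00406), whereas in Pu.1 KD it read -0.42 (adjusted p 0.638).

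**Figure D4:**
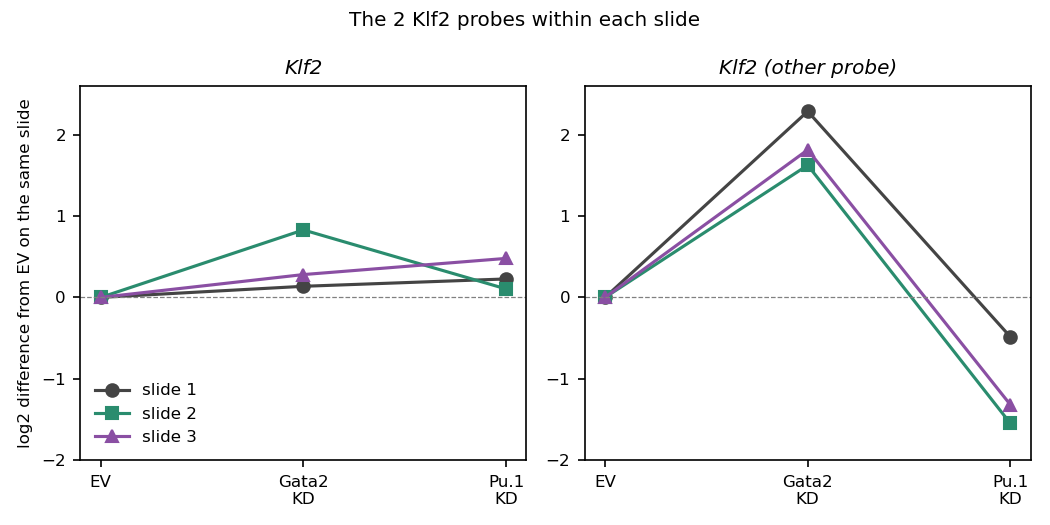
Log2 difference from the EV array on the same slide (y axis) for the main and the other probe of Klf2, with one line per slide. On the other probe all 3 slides rise by 1.63 to 2.29 in Gata2 KD and lie below EV in Pu.1 KD, while on the main probe the Gata2 KD differences are 0.14 to 0.83.

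Genes of the neutrophil lineage changed in the same direction as the other Klf2 probe in both knockdowns, and monocyte genes did so in Gata2 KD. In Pu.1 KD that probe was not called. All 10 genes of a neutrophil list, which holds the primary granule genes Mpo, Elane, Prtn3 and Ctsg of promyelocytes beside later genes such as Ltf and Camp, were called higher in Gata2 KD and 8 of 10 lower in Pu.1 KD, where 4.21% and 2.16% of all genes were called higher and lower. Their summed level, in multiples of the 75th percentile of the array, was 240.4 to 269.7 in EV, 1121 to 1335 in Gata2 KD and 105.6 to 124.6 in Pu.1 KD. Of 7 monocyte genes tested, 6 were called higher in Gata2 KD and 1 lower in Pu.1 KD, with summed levels of 4.01 to 4.32 in EV, 37.6 to 43.1 in Gata2 KD and 2.50 to 2.81 in Pu.1 KD. Kit, a receptor of progenitors and mast cells named after its values were seen, was higher in both knockdowns, by 0.75 in Gata2 KD and 1.41 in Pu.1 KD (limma adjusted p 0.0241 and 0.00332). It belongs to a list of 8 multipotent progenitor genes. Of these 3 were called higher and 3 lower in Gata2 KD, and 1 each way in Pu.1 KD. Those lower in Gata2 KD include Gata2, the target of the shRNA. Of 8 mast cell and basophil genes 6 were called lower in Gata2 KD and 3 lower in Pu.1 KD. Of all genes 7.15% and 3.61% were called in either direction. The part of these cells in the Klf2 values was not tested.

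Klf4 encodes a factor that promotes monocyte differentiation and is best known from reprogramming to pluripotency. Its probe was lower in Pu.1 KD than in both other groups. It read -1.18, -1.05 and -0.43 in EV, -1.21, -1.09 and -1.02 in Gata2 KD and -2.02, -2.73 and -1.87 in Pu.1 KD. The Pu.1 KD arrays lay below all others, whereas EV and Gata2 KD overlapped. The change in Pu.1 KD was -1.32 with an SE of 0.27 (2.49-fold lower, limma adjusted p 0.0456), and it was lower on 3 of 3 slides by -1.68 to -0.68. This call was close to the threshold and was lost under 12 of 21 alternatives. With each of the 9 arrays left out in turn, the change was -1.49 to -1.06 and the adjusted p 0.0739 to 0.125. It was also lost with only the groups compared in the fit (adjusted p 0.164). Klf4 was 2.14-fold higher in Gata2 KD when the knockdowns were set against each other (log2 SE 0.27, adjusted p 0.0389), which was lost under 7 of 21 alternatives, 6 of them without 1 array. Against EV it differed in Gata2 KD by -0.22 (95% interval -0.84 to 0.40), and this turned to 0.0099 without EV replicate 3, the array with the highest Klf4 level.

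The genes whose levels over the 9 arrays were most like those of Klf4 were Crip1, Top1mt and Bola1. Likeness was the root mean square difference between levels after the mean of each gene was removed, and it was 0.194, 0.220 and 0.229 for these genes against a median of 0.678 over 14241 genes. In Pu.1 KD against EV Crip1, which encodes a small LIM-domain protein, differed by -1.25, Top1mt, encoding the mitochondrial topoisomerase I, by -1.17 and Bola1, which encodes a mitochondrial protein, by -1.28. Since these genes were picked for following Klf4 over the same arrays, their differences are a description and were given no test. For the other Klf2 probe, ranked after its values were seen, the most alike were Cd34, Adgre1 and S100a4, with differences of 0.197, 0.254 and 0.257 against a median of 1.34. Cd34 encodes a progenitor surface protein, Adgre1 the macrophage antigen F4/80 and S100a4 a calcium-binding protein. Picked in the same way, Cd34 differed from EV by 2.17 in Gata2 KD and by -0.92 in Pu.1 KD, and Adgre1, also one of the monocyte markers above, by 2.11 and -0.99.

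Klf6 encodes a widely expressed activator that is induced early after stimulation. Both of its probes were highest in Gata2 KD and lowest in Pu.1 KD by their means. The other probe read 1.97, 2.21 and 2.39 in EV, 2.87, 2.82 and 2.70 in Gata2 KD and 1.82, 1.93 and 1.75 in Pu.1 KD. None of these ranges overlapped. Between the knockdowns the difference was 0.96 with an SE of 0.15 (1.94-fold, limma adjusted p 0.00404), it was 0.93 to 0.99 within the slides, and it held under all 20 alternatives. Its difference from EV did not pass in Gata2 KD (0.60, adjusted p 0.0596) or in Pu.1 KD (-0.35, adjusted p 0.372), and the former passed under 7 of 20 alternatives, among them the slide as a block (adjusted p 0.0216). The main probe of Klf6 read 3.11, 3.54 and 4.0 in EV, 4.17, 4.18 and 3.71 in Gata2 KD and 3.30, 3.40 and 3.20 in Pu.1 KD, so EV overlapped both knockdowns. Its difference between the knockdowns was 0.72 (adjusted p 0.121, and 0.0314 with the slide as a block). No unequal change was called between the Klf6 probes.

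Klf3 encodes a repressor that recruits CtBP, and both of its probes had higher levels on every Gata2 KD array than on any EV array. The other probe read -2.82, -2.94 and -2.74 in EV, -1.97, -2.04 and -1.95 in Gata2 KD and -2.67, -2.74 and -2.31 in Pu.1 KD. Gata2 KD lay above all other arrays, and EV and Pu.1 KD overlapped. The change in Gata2 KD was 0.85 with an SE of 0.15 (1.80-fold, limma adjusted p 0.0138), higher on 3 of 3 slides. It was lost under 4 of 20 alternatives, without EV replicate 2 (adjusted p 0.0596) or any 1 of the Gata2 KD arrays (adjusted p 0.0523 to 0.0642). Set against Pu.1 KD, the Gata2 KD arrays were higher by 0.58 (adjusted p 0.0473), a call lost under 14 of 20. On the main probe the levels were -2.51, -2.40 and -3.03 in EV, -1.87, -1.96 and -1.82 in Gata2 KD and -2.07, -1.88 and -2.37 in Pu.1 KD. Both knockdowns lay above EV there, by 0.77 (adjusted p 0.0797) and 0.54 (adjusted p 0.289), and neither was called. The mean of both probes was called in Gata2 KD (0.81, adjusted p 0.00611).

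The repressors Klf9, Klf10 and Klf13 recruit Sin3 through a shared N-terminal motif, and of these Klf9 had a called probe. Klf9 is also known as a target of glucocorticoid and thyroid hormone receptors. Its other probe read -0.78, -0.57 and -0.64 in EV, -1.12, -1.05 and -1.42 in Gata2 KD and -0.15, 0.00 and -0.67 in Pu.1 KD. Gata2 KD lay below all other arrays, while EV and Pu.1 KD overlapped. The knockdowns differed on it by -0.92, Gata2 KD being lower (SE 0.20, 1.90-fold, limma adjusted p 0.0218), a call lost under 6 of 20 alternatives, of which 5 left out 1 array of either knockdown. Against EV it differed by -0.53 in Gata2 KD (adjusted p 0.242) and by 0.39 in Pu.1 KD (adjusted p 0.527). The main probe of Klf9 differed by -0.62 between the knockdowns (adjusted p 0.178) and read 0.05, -0.23 and -0.24 in EV, -0.85, -0.23 and -0.10 in Gata2 KD and 0.50, -0.06 and 0.24 in Pu.1 KD.

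Klf13, which encodes the factor that drives Ccl5 late in T cell activation, read 2.25, 2.36 and 2.36 in EV, 2.91, 3.12 and 2.55 in Gata2 KD and 2.51, 2.39 and 2.01 in Pu.1 KD. Gata2 KD lay above the other groups, which overlapped. Its difference from EV in Gata2 KD was 0.54 (SE 0.19, limma adjusted p 0.215) and from Pu.1 KD 0.56 (adjusted p 0.137), and both passed with the slide as a block (adjusted p 0.0459 and 0.0262). Klf10, induced early by TGF-beta, read 0.80 to 1.29 in EV, 0.68 to 0.97 in Gata2 KD and 1.14 to 1.19 in Pu.1 KD. No difference of Klf10 was called, and the one between the knockdowns was -0.32 (95% interval -0.69 to 0.04).

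Klf5, a growth-promoting factor of epithelia, and Klf7, known from neuronal growth, were not called in any comparison. Klf5 read -0.76 to -0.33 in EV, -0.18 to -0.13 in Gata2 KD and -0.41 to -0.30 in Pu.1 KD. The Gata2 KD arrays lay above the rest, with a difference from EV of 0.40 (95% interval 0.08 to 0.72, limma adjusted p 0.207). Klf7 read 1.38 to 1.68 in EV, 1.67 to 1.89 in Gata2 KD and 1.48 to 1.78 in Pu.1 KD, and its groups overlapped throughout. Its interval was -0.08 to 0.59 in Gata2 KD and -0.22 to 0.45 in Pu.1 KD.

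**Figure D5:**
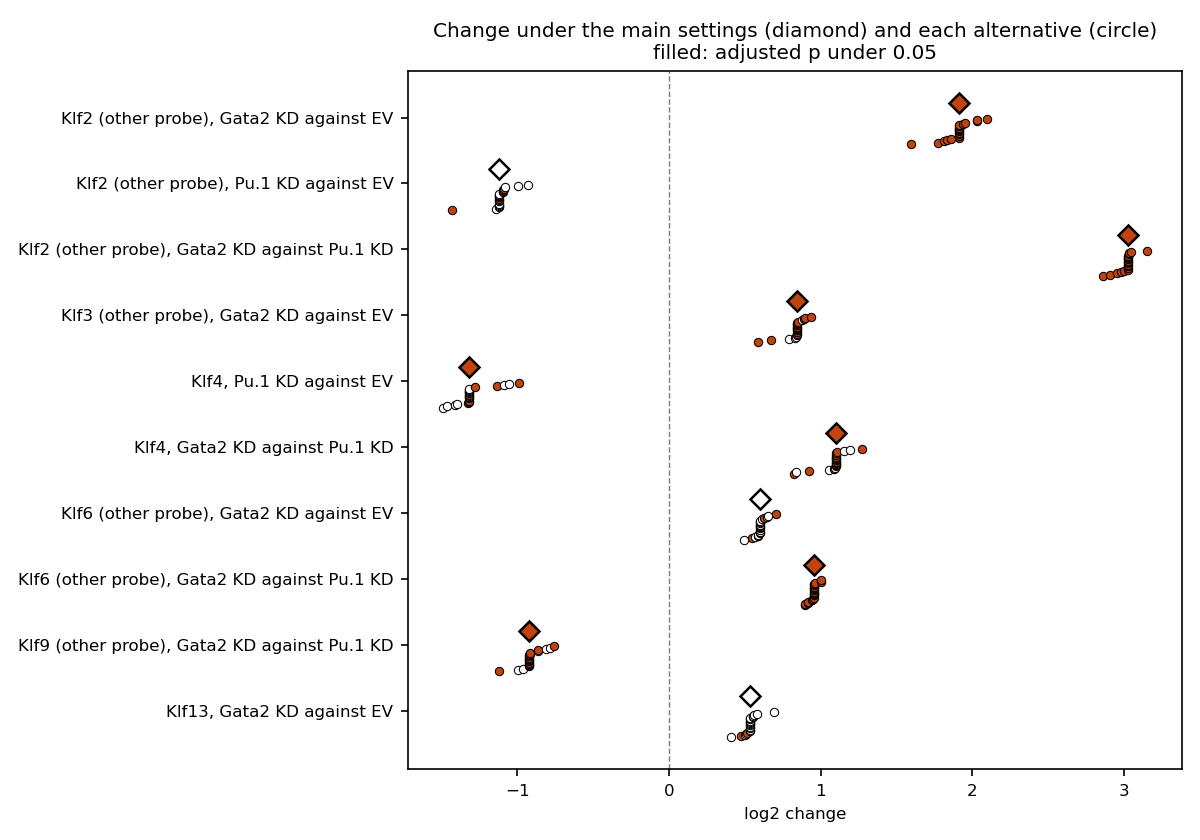
Log2 change (x axis) of 10 selected probe and comparison pairs under the main settings (diamonds) and each alternative (circles), filled where the adjusted p was under 0.05. Changes of the other Klf2 probe in Gata2 KD and between the knockdowns, and of the other Klf6 probe between the knockdowns, are filled throughout. Klf4 in Pu.1 KD is open in 12 of 21 alternatives.

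The rest of the family and its partners were read from lists of general knowledge. Of 7 further Kruppel-like factors tested, 1 was called in each knockdown against EV, and it was Klf1 in both, at -1.76 in Gata2 KD (limma adjusted p 0.00016) and 0.84 in Pu.1 KD (adjusted p 0.0174). None of 8 Sp factors and none of 12 cofactors, such as the CtBP, Sin3 and histone deacetylase genes, was called by limma in any comparison. In Gata2 KD, in Pu.1 KD and between the knockdowns 1, 0 and 0 Sp genes and 2, 1 and 2 cofactors had an unadjusted p under 0.05. With 7.15%, 3.61% and 12.4% of all genes called, lists of this size would hold few calls at the shares of all genes. Median changes of the Sp list were -0.06 in Gata2 KD and -0.05 in Pu.1 KD, and those of the cofactors -0.13 and -0.05. Among 14 genes of pathways that induce these factors, 1 was higher and 1 lower in each knockdown. Mef2c, which encodes a MEF2 protein, rose by 2.19 in Gata2 KD (adjusted p 0.0184) and read 0.36 in Pu.1 KD, where it was not called (adjusted p 0.926). Map2k5 (MEK5), Mapk7 (ERK5), Mef2a and Mef2d, named after their values were seen, were not called in Gata2 KD. They changed by -0.11, 0.06, 0.04 and -0.27, and a link of any of these genes to Klf2 was not tested. Smad3, a transducer of TGF-beta signals, rose by 1.08 in Pu.1 KD (adjusted p 0.0146). Tgfbr2, which encodes a TGF-beta receptor, fell in both, by 0.87 in Gata2 KD (adjusted p 0.00708) and by 1.32 in Pu.1 KD (adjusted p 0.00289). The median change of the pathway list was -0.16 in Gata2 KD and 0.02 in Pu.1 KD.

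Genes known as targets of the members included several that rose in Gata2 KD. Of 8 tested, 4 were called higher and none lower, where 4.21% of all genes were called higher, and the list had a median change of 0.57. The 3 largest were Cd14, a lipopolysaccharide co-receptor and also a monocyte marker, by 3.17 (limma adjusted p 2.76e-05), the chemokine Ccl5 by 2.80 (adjusted p 9.73e-05) and the integrin gene Itgb7 by 1.19 (adjusted p 0.00327). The remaining gene, named because the count is small, was the cyclin gene Ccnd1 at 0.75 (adjusted p 0.0357). The 4 genes not called, named after their values were seen, were Smad7 at 0.39, Lgals3 at 0.36, S1pr1 at 0.05 and Cdkn1a at -0.69. KLF2 is known to act on Itgb7 in T cells and KLF13 to activate Ccl5, and neither role was tested here. In Pu.1 KD limma called 0 of 8, with 3 of 8 at an unadjusted p under 0.05 and a median change of -0.13. Between the knockdowns, where 12.4% of all genes were called, 4 were higher in Gata2 KD and 1 lower. The higher ones were Cd14, Ccl5, Itgb7 and Smad7 (1.91, limma adjusted p 0.0395), whereas Ccnd1 was not called (adjusted p 0.168). Smad7 was well above background on only 6 arrays. The lower one was Cdkn1a at -0.98 (limma adjusted p 0.0396). The summed level of the target list was 26.7 to 37.0 in EV, 50.2 to 57.8 in Gata2 KD and 29.8 to 31.5 in Pu.1 KD.

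Klf2, Klf4, Klf6 and Klf10 can be induced within minutes by handling or dissociation of cells, so 17 other early response genes were examined beside them. In Gata2 KD 1 of 17 was called, against 7.15% of all genes, and it was Egr2 at 0.86 (limma adjusted p 0.0492). In Pu.1 KD 2 of 17 were called, against 3.61%, Fos at -1.55 (adjusted p 0.0228) and Dusp1 at -1.15 (adjusted p 0.0418), both lower as Klf4 was. Between the knockdowns, where the other Klf2 and Klf6 probes differed most, 6 of 17 were called, against 12.4% of all genes, and the median difference was 0.35. Zfp36, Dusp1 and Egr2 were higher in Gata2 KD and Egr1, Btg2 and Jund lower, named after their values were seen (limma adjusted p 0.00268 to 0.0303). The median change of the list was -0.07 in Gata2 KD and -0.04 in Pu.1 KD, and its summed levels were 166.1 to 197.6 in EV, 146.7 to 173.9 in Gata2 KD and 174.2 to 214.9 in Pu.1 KD. EV overlapped both knockdowns, whereas every Gata2 KD sum lay below every Pu.1 KD sum, narrowly (173.9 against 174.2 at the nearest). A sum weighs genes with high levels most, such as Jund (mean level 6.13), and the median difference of 0.35 had the opposite direction. The part of such a response in the values of the members was not tested.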

How the data were processed

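FDCPmix RNA from 9 samples (groups and replicate numbers from the sample titles) was hybridized to single-colour whole mouse genome arrays. The authors deposited Agilent Feature Extraction 10.1.1.1 output, from which the processed signal intensity, already background-subtracted within each array, was used, and a table of log2 values whose processing is not given in the sources used here, used as an alternative only. Control spots were dropped, spots flagged as outliers (47 to 96 per array) were set to missing and the log2 values of replicate spots were averaged for each probe. The 75th percentile of each array was then subtracted. A probe was tested if well above background on at least 3 arrays with 2 or more values in each group, which kept 36585 of 41174 probes. Accessions were matched to a RefSeq gene table (GRCm38.p6), naming 23374 probes. Since the array was not designed on that assembly, no gene coordinates beyond the promoter windows are given.

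Comparisons used limma 3.58.1 in R 4.3.3 (group means over 9 arrays, eBayes, two-sided), and the scripts were tested on simulated data. With 3 arrays per group, the number of arrays limits precision. Alternatives were the replicate or slide block, normexp with an offset of 50 (on median signals), quantile and median scaling, no filter or one on all arrays, outlier spots kept, trend with robust eBayes, the deposited log2 table, fits with only the groups compared, probe means and each array left out. Probe counts under them and the comparison of probe pairs were added after seeing the data. Named genes were all members, the targeted genes, up to 3 called per direction against EV from each list of related genes and the 3 genes most like each member called by the F test. Members and gene lists (related factors, cofactors, inducing pathways, targets, early response genes and 7 sets of cell type markers) were chosen with earlier results of these data known. Some items of these lists are not reported here and were left out of their counts.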

Additional observations from a re-analysis of the deposited data

How the results depend on the processing

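The 39 changes of member probes gave 807 values under the alternatives, of which 724 kept direction and side of the threshold, 43 lost a call, 33 gained one and 7 turned direction, none of the 7 having been called. Turned values were Klf13 in Pu.1 KD (0.0058 with quantile normalization, 0.018 with median scaling, -0.13 to 0.13 with 1 array left out and turned without Pu.1 KD replicate 3), the main probe of Klf2 in Pu.1 KD (-0.42 as the mean of its probes, -0.034 to 0.49 with 1 array left out, turned without Pu.1 KD replicate 2) and between the knockdowns (-0.071 to 0.45, turned without Pu.1 KD replicate 1), and Klf4 in Gata2 KD (-0.36 to 0.0099, turned without EV replicate 3). Main counts in Gata2 KD, in Pu.1 KD, between the knockdowns and by the F test were 0, 1, 1 and 1 of 9 genes and 2, 1, 5 and 4 of 13 probes. With the slide as a block, 1 gene was called in Gata2 KD, 3 between the knockdowns and 2 by F, and 4 probes in Gata2 KD and 2 in Pu.1 KD. Normexp and the deposited values each gave 1, 4 and 3 genes in those tests, and 5 probes in Gata2 KD, 2 in Pu.1 KD, 8 between the knockdowns and 7 by F. Averaging the probes of a gene gave 2, 4 and 4 genes. Quantile normalization, the filter on all arrays and trend with robust eBayes gave 2 probes in Pu.1 KD, and the last of these also 2 genes between the knockdowns. Median scaling left 3 probes between the knockdowns. Without a filter no gene or probe was called in Pu.1 KD, and 0 genes and 3 probes between the knockdowns. Only the groups compared left 0 in Pu.1 KD. The causes were not tested. With 1 array left out, genes called were 0 in Gata2 KD, 0 in Pu.1 KD, 0 to 1 between the knockdowns and 0 to 1 by F, and probes 1 to 3, 0 to 1, 2 to 5 and 1 to 4. Over all probes, calls ranged from 1072 to 2886 in Gata2 KD (main 1902), 223 to 1875 in Pu.1 KD (986), 2206 to 5168 between the knockdowns (3524) and 1971 to 4996 by F (3298).

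Same-numbered arrays had deviations that correlated at -0.55 to 0.65 over 9 pairs. The pair with the highest value also shared a slide. Same-numbered arrays on different slides correlated at -0.55 to 0.35, and arrays that shared neither number nor slide at -0.63 to 0.35. Apart from the slide, same-numbered arrays were thus no more alike, which does not settle whether the samples were paired. Deviations of arrays on the same slide correlated at -0.04 to 0.72 over 9 pairs, and the slide block, which the main settings leave out, raised the calls over all probes in Pu.1 KD from 986 to 1875. With the replicate number as a block, 0 genes and 0 probes were called in Pu.1 KD, where Klf4 had an adjusted p of 0.0709, and 2 probes by F. The Klf3 difference between the knockdowns was lost as well (adjusted p 0.0958).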

Other observations

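Markers of other lineages were read beside the Kruppel-like factors, in comparisons where 7.15% of all genes were called in Gata2 KD and 3.61% in Pu.1 KD. Of 8 mast cell and basophil genes tested, 6 were called lower in Gata2 KD and 3 lower in Pu.1 KD, with summed levels of 125.4 to 144.2 in EV, 24.3 to 26.4 in Gata2 KD and 87.4 to 95.9 in Pu.1 KD. Of 8 erythroid genes 2 were called lower in Gata2 KD and 1 higher in Pu.1 KD. Of 7 megakaryocyte genes 2 were called higher in Gata2 KD and 3 higher in Pu.1 KD, where the summed level was 148.8 to 173.7 against 59.4 to 77.4 in EV. Of 8 genes of multipotent progenitors 3 were called higher and 3 lower in Gata2 KD, the lower ones including Gata2 itself, and 1 each way in Pu.1 KD. Of 9 lymphoid genes limma called none in Gata2 KD, where 1 had an unadjusted p under 0.05, and 1 lower in Pu.1 KD.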
